A study of Mus musculus with 36 samples.

Results

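Hearts of young and old adult mice and of every embryonic day from E10.5 to E19.5 were compared for 10 genes of the heat shock response: Hspa1a, Hspa1b, Hsph1, Dnajb1, Hsp90aa1, Hspb1, Hspb6, Hspb7, Hspb8 and Cryab. All rows of the array annotated to these genes were taken, which gave 24 of 45101 probe sets. The genes were chosen by their log2 intensities across the 12 stages and on single adult arrays of these data. Their stage levels are therefore a description without tests. Whole hearts of OF1 mice, with no genetic change or treatment in any group, were profiled on 36 one-colour arrays, 3 for each of 12 stages. The groups were the 10 embryonic days, young adult (10 weeks) and old adult hearts. The old adults were 10 months old by the methods and 14 months old by the labels, and no value depends on this age. At E10.5 and E11.5 the 3 arrays were all of mixed sex (mf1, mf2 and mf3), and from E12.5 on a stage had 1 female (f), 1 male (m) and 1 mixed (mf) array. By the methods a female or male embryonic array held the heart of a single pup and a mixed array held hearts of both sexes, and adult hearts were collected in a like way. Each sex thus stood on 1 array per stage.

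Heat shock proteins are chaperones that keep other proteins folded, and many are induced by heat shock factor 1 when unfolded proteins build up. HSP70 proteins (Hspa1a, Hspa1b) bind exposed stretches of a client, HSP40 proteins (Dnajb1) deliver clients and start ATP hydrolysis, and HSP110 proteins (Hsph1) exchange the nucleotide and release the client. Hsp90aa1 encodes the inducible cytosolic HSP90, which acts late in the folding of kinases and steroid receptors. Small heat shock proteins hold unfolded proteins without ATP. In the heart they sit largely on the Z-disc and on filaments: Cryab (alpha B-crystallin) binds desmin and titin, Hspb6 is a phosphorylated regulator of contraction, Hspb7 binds filamin C, Hspb8 works with Bag3 in the removal of damaged Z-disc proteins, and Hspb1 stabilises actin.

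The upstream sequences of 5 of these genes are shown because heat shock factor binds repeats of the unit GAA and its reverse TTC, and the genes differed in whether such a pair lay close to the start. RefSeq promoter windows (GRCm38.p6) of 250 bases before and 50 bases after a start were given for 8 of the 10 genes, in 11 windows, and not for Cryab and Hsp90aa1. They were searched for the 8 base patterns GAANNTTC and TTCNNGAA. Each pattern is its own reverse complement, so both strands were covered, and neighbouring matches may share a unit. The 150 bases before the start are printed 5′ to 3′ on the gene's strand, with the matches in capitals.
Hspa1a, chr17:34972157-34972306, minus strand: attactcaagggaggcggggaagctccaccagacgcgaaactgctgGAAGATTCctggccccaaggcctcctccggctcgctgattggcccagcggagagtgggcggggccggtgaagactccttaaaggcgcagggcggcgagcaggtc
Hspa1b, chr17:34959239-34959388, minus strand: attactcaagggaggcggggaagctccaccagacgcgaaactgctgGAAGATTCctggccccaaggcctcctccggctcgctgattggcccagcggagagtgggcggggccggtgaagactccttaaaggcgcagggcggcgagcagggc
Hsph1, chr5:149636337-149636486, minus strand: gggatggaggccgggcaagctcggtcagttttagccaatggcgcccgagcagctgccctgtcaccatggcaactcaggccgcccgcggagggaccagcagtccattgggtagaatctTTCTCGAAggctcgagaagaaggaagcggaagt
Hspb1, chr5:135887769-135887918, plus strand: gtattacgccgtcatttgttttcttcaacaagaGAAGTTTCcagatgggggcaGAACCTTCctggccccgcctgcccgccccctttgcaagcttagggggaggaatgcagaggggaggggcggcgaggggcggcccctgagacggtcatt
Dnajb1, chr8:83608025-83608174, plus strand: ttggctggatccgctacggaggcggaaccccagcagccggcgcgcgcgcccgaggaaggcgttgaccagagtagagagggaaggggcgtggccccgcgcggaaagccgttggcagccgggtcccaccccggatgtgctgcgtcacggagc

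In Hspa1a and Hspa1b the match began at position -104, counted from the start. The 250 upstream bases of this gene pair were equal at 247 positions (98.8%). In Hspb1 the matches began at -117 and -97, and in Hsph1 at -33, with another pair at 37 and 42 downstream of the start. That pair made up 3 alternating units in a row, an arrangement held by both Hsph1 windows and by 0.603% of all 32851 mouse windows of the same 300 bases. Either 8 base pattern was held by 7 of the 11 windows, from 6 of the 8 genes, and by 15.1% of all windows. Hspb8 had its match at 3, just after the start, and Hspb6 had one at -120 before its second annotated start. The windows of Hspb7 and Dnajb1 held none. A match is a description of the letters and not a bound site.

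The genes lie on 8 chromosomes: Hspb7 on 4, Hspb8, Hspb1 and Hsph1 on 5, Hspb6 on 7, Dnajb1 on 8, Cryab on 9, Hsp90aa1 on 12, and Hspa1b (34956429 to 34959238) and Hspa1a (34969359 to 34972156) next to each other on 17 (GRCm38.p6). Hspa1a and Hspa1b are near-identical copies, so a probe set named for one may also have read the other. Values are deposited log2 intensities. Each gene was read from its probe set with the highest mean over the 36 arrays, and levels are compared only within a probe set. In whole hearts, more RNA per cell and more cells of a type cannot be told apart. The tissue carried heart markers: the mean of 5 cardiomyocyte genes lay at 10.96 or higher on every array, while of 5 liver genes none had a stage mean above 5 except Ahsg, at 5.03 in young adults. The liver genes were read because the extraction protocol of the labels names liver.

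The inducible HSP70 genes Hspa1a and Hspa1b stood high on some arrays of E10.5 and of both adult stages, and their stage means were low and even in between. Hspa1b read 5.85 on E10.5 array mf1, 9.35 on mf2 and 9.25 on mf3. In young adults it read 7.61 (f), 10.50 (m) and 8.84 (mf), and in old adults 8.08 (f), 10.38 (m) and 7.31 (mf). From E11.5 to E19.5 the stage means ran only from 6.57 to 7.35, though arrays of a stage lay up to 1.41 apart (E17.5). The 4 highest arrays were thus the 2 adult male arrays and E10.5 arrays mf2 and mf3, while E10.5 array mf1 was the lowest of all 36. Of the other adult arrays, young mf and old f also lay clearly above the highest array of E11.5 to E19.5 (7.60), young f lay beside it and old mf below it. The standard deviation of 3 arrays was 2.00 at E10.5, 1.45 in young and 1.60 in old adults, against a median of 0.49 over the 9 stages from E11.5 to E19.5.

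Hspa1a, on its own probe set, showed the same arrays apart. It read 3.93, 7.05 and 6.94 on E10.5 arrays mf1, mf2 and mf3. It read 4.55 (f), 7.13 (m) and 5.26 (mf) in young and 4.74 (f), 7.22 (m) and 4.19 (mf) in old adults. Its means from E11.5 to E19.5 lay between 4.05 and 4.50. The young adult male array exceeded the mean of the other 2 young arrays 4.68-fold for Hspa1a and 4.84-fold for Hspa1b, and the old adult male array did so 6.74-fold and 6.43-fold. No neighbouring pair in the order of the 12 stage means was free of overlap between arrays, for either gene.

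The stage differences of these copies changed when those arrays were left out. Hspa1b was lower at E19.5 than in young adults by 2.26 on the log2 scale (6.73 ± 0.63 against 8.98 ± 1.45, SD, n = 3), a log2 difference of -2.26 ± 0.69 (SE). Without both adult male arrays it was -1.50 ± 0.63. Between E10.5 and E19.5 its log2 difference was 1.43 ± 0.69, and without E10.5 arrays mf2 and mf3 it was -0.88 ± 0.80. For Hspa1a the values were 1.92 ± 0.64 and -0.12 ± 0.77. The arrays mf2 and mf3 were left out because they were high, and only the low array mf1 remained. These reduced values therefore cannot decide whether E10.5 hearts stood above E19.5 hearts. For Hspa1b mf2 and mf3 were alike, at 9.35 and 9.25, above all E19.5 arrays (at most 7.19), and mf1 lay apart at 5.85.

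Hsph1 and Dnajb1, the partners of HSP70, were high early, had their lowest stage mean at E19.5 and were high again in adults. Hsph1 read 8.66, 8.86 and 8.49 on E10.5 arrays mf1, mf2 and mf3. It read 6.40 (f), 6.34 (m) and 4.86 (mf) at E19.5, 8.16 (f), 9.50 (m) and 7.70 (mf) in young adults and 8.94 (f), 9.98 (m) and 8.03 (mf) in old adults. The E19.5 mean of 5.87 was the lowest through array mf, as f and m lay above the means of E15.5 to E18.5 (5.90 to 6.31). E10.5 and adult arrays did not overlap with those of E19.5, and by E13.5 the mean already stood at 6.68, against 8.67 at E10.5. The log2 difference was 2.80 ± 0.40 (SE) between E10.5 and E19.5, a 6.98-fold change, and -2.59 ± 0.40 between E19.5 and young adults, a 6.01-fold change. Without both adult male arrays the latter was -2.06 ± 0.36.

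Dnajb1 followed a flatter course. Its E10.5 arrays read 8.06 to 8.12 and its E19.5 arrays 6.71 to 7.13, while young adult arrays read 7.51 to 8.20 and old adult arrays 7.72 to 9.10. Its stage means stepped down 7 times in the 9 steps from E10.5 to E19.5. The log2 difference was 1.16 ± 0.25 between E10.5 and E19.5 and -0.83 ± 0.25 between E19.5 and young adults. In both adult stages the male array was the highest, at 8.20 and 9.10.

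Hsp90aa1 was highest early, and on the probe set read here its young adult arrays overlapped with those of E19.5. Its E10.5 arrays read 11.14 to 11.31 and its E19.5 arrays 8.91 to 9.53, while young adult arrays read 9.21 to 9.81 and old adult arrays 9.48 to 10.28. All E10.5 arrays lay above every array of later stages. The mean was 11.23 ± 0.09 (SD, n = 3) at E10.5 and 9.44 ± 0.32 in young adults, a log2 difference of 1.79 ± 0.28 (SE) or 3.46-fold. Between E19.5 and young adults the difference was -0.19 ± 0.28. A second probe set gave -0.72 ± 0.18, with E19.5 arrays at 8.09 to 8.39 below young adult arrays at 8.74 to 9.39, and a further one gave -0.27 ± 0.19.

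Among the small heat shock proteins, Hspb6 had the widest course. It read 4.25, 4.36 and 3.64 on the E10.5 arrays, and its means then climbed to 5.23, 5.87, 6.95, 7.51 and 7.83 at E11.5 to E15.5. They stayed at 8.08 to 8.13 from E16.5 to E18.5 and reached 8.50 at E19.5. Young adult arrays read 9.88 (f), 10.12 (m) and 10.09 (mf), and old adult arrays 9.40 (f), 10.64 (m) and 9.40 (mf). Consecutive days from E10.5 to E14.5 did not overlap in any array, and neither did E19.5 and the adult stages. The log2 difference between E10.5 and young adults was -5.95 ± 0.28 (SE), a 61.8-fold change. Between E10.5 and E19.5 it was -4.41 ± 0.28, and between E19.5 and young adults -1.53 ± 0.28.

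Cryab, on the probe set read, differed more between E19.5 and young adults than between E10.5 and E19.5. Its E10.5 arrays read 10.85 to 11.03 and its E19.5 arrays 11.00 to 11.63, while young adult arrays read 12.51 to 12.69 and old adult arrays 12.19 to 12.40. From E10.5 to E18.5 all its means lay between 10.66 and 11.19, and on this probe set no embryonic array reached an adult one. The log2 difference was -1.17 ± 0.18 (SE) between E19.5 and young adults, 2.25-fold, against -0.44 ± 0.18 between E10.5 and E19.5. Old adult arrays all lay below young adult arrays, a log2 difference of -0.25 ± 0.18.

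Hspb8, the partner of Bag3, had a trough before birth. Its arrays read 8.39 to 8.49 at E10.5 and 6.56 to 6.88 at E19.5. They read 8.24 (f), 8.62 (m) and 8.77 (mf) in young adults and 8.74 (f), 10.07 (m) and 8.29 (mf) in old adults. The E19.5 mean of 6.75 was the lowest of the 12, and the old adult male array was 2.94-fold above the mean of the other 2. The log2 difference between E19.5 and young adults was -1.79 ± 0.29 (SE), 3.45-fold, and -1.75 ± 0.26 without both adult male arrays.

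Hspb1 had a mean of 11.07 ± 0.42 (SD, n = 3) at E10.5 and of 9.65 ± 0.32 at E19.5. Young adults stood at 9.81 ± 0.22 and old adults at 9.94 ± 0.70. The log2 difference between E10.5 and E19.5 was 1.41 ± 0.37 (SE). Its arrays spread widely within stages, up to a standard deviation of 0.76 at E17.5, and no neighbours in the order of its stage means were free of overlap. Hspb7 was close to level on the deposited values. Its means lay between 9.33 at E11.5 and 10.42 at E16.5, its log2 difference between E10.5 and young adults was -0.24 ± 0.24 (SE), and between E19.5 and young adults 0.01 ± 0.24.

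**Figure D1:**
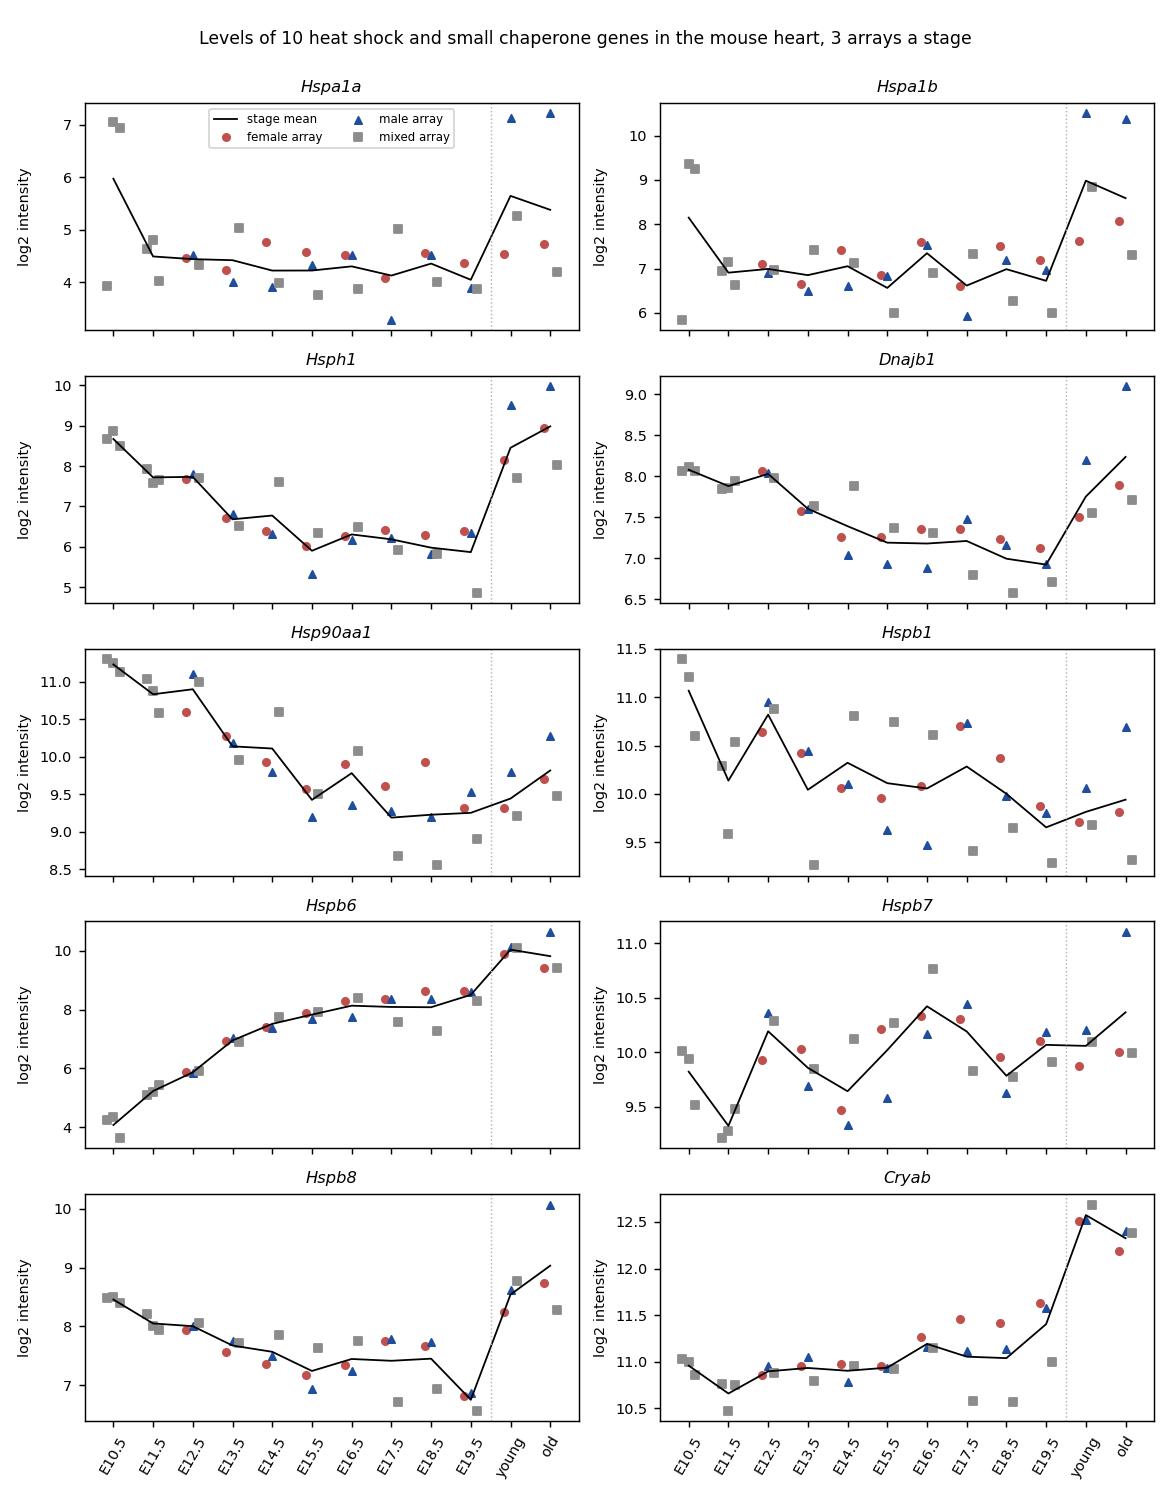
Each panel plots the log2 intensity of a gene (vertical axis) against the 12 stages (horizontal axis), with 1 point per array (female, male or mixed, set side by side) and a line through the stage means. Hspb6 climbs from 4.08 to 10.03, and Hsph1, Dnajb1 and Hspb8 have their lowest stage mean at E19.5. In both adult stages the male array stands highest for Hspa1a, Hspa1b, Hsph1 and Dnajb1.

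The counts below describe the members and nothing is read from them, since the choice used the same stages. A call needed an adjusted p under 1e-05 in limma, a log2 difference larger than 2 in size, and 1 or more stages with a mean over 5. Between E10.5 and young adults 1 of 10 genes (Hspb6) was called, beside 6.53% of all probe sets. Between E19.5 and young adults it was 1 (Hsph1), beside 1.45%, and between E10.5 and E19.5 it was 2 (Hsph1 and Hspb6), beside 2.18%. At an adjusted p under 0.05, 2 genes were higher at E10.5 than in young adults (Hsp90aa1 and Hspb1), beside 27.1% of all probe sets, and 2 were lower (Hspb6 and Cryab), beside 35.9%. At E19.5, 0 genes were higher than in young adults, beside 15.5%, and 6 were lower (Hspa1b, Hsph1, Dnajb1, Hspb6, Hspb8 and Cryab), beside 13.6%. At E10.5, 6 genes were higher than at E19.5, beside 21.8%, and 2 were lower, beside 23.7%. Shared control arrays link these comparisons. The median log2 difference of the 10 genes between E19.5 and young adults was -1.35, and that of all probe sets -0.04.

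Between old and young adults none of the 10 genes passed either limit in limma. An unadjusted p under 0.05 was found for 0 of them, beside 23.1% of all probe sets. Of all probe sets, 0.00665% were called, 3.83% were higher and 3.13% lower at an adjusted p under 0.05. The log2 differences ranged from -0.39 ± 0.69 (SE, Hspa1b) to 0.53 ± 0.40 (Hsph1). On the probe sets read, the arrays of both stages overlapped for all genes but Cryab, and its second probe set did overlap. The share of all probe sets without overlap was not counted, so nothing is read from this.

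The other probe sets of the genes followed these courses in part. The 2 further Hspa1b probe sets read 7.26 and 7.34 on the young adult male array against 5.06 and 5.13 on the female one. The second Hsph1 probe set ran from 2.61 at E19.5 to 5.46 at E10.5 and reached 6.13 on the old adult male array. A second Hspb7 probe set did not share the level course: it read 4.79 at E10.5 and 6.54 in young adults, a log2 difference of -1.75 ± 0.27 (SE). For Hspb8 both further probe sets were lower at E10.5 than in young adults, by -0.87 ± 0.19 and -0.98 ± 0.17, where the main one differed by -0.08 ± 0.29. A second Cryab probe set read 9.73 on the old adult male array against 7.93 (mf) and 8.77 (f), where the main one read 12.40 against 12.38 and 12.19. On that second probe set embryonic and adult arrays overlapped: E10.5 arrays read up to 8.18, above young adult f at 8.07, and the E10.5 mean of 7.79 lay above the E19.5 mean of 6.99. One probe set each of Hsp90aa1 and Cryab never passed a stage mean of 3.39.

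Male and female arrays were set against each other in 9 stages, from E13.5 to old adults, with stage as a block. Over all 9 pairs none of the 10 genes differed in limma, beside 0.0488% of all probe sets at an adjusted p under 0.05. At an unadjusted p under 0.05 it was 0 genes, beside 7.8% of all probe sets. The E12.5 pair was left out as in the study's design. The pairs were not alike. For Hspa1b the male minus female difference was negative in all 7 embryonic pairs, from -0.80 to -0.02 with a mean of -0.33 ± 0.30 (SD). It was 2.89 in young and 2.30 in old adults. For Hspa1a the 7 embryonic pairs ran from -0.85 to 0.00, and the adult pairs read 2.58 and 2.48. The E12.5 pair read 0.05 for Hspa1a and -0.20 for Hspa1b. The share of all probe sets negative in all 7 embryonic pairs was not counted, so nothing is read from that number.

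For Hsph1 the adult differences were 1.34 and 1.04 against an embryonic mean of -0.21 ± 0.27, and for Dnajb1 0.69 and 1.20 against -0.17 ± 0.21. On the probe sets read, all 10 genes were higher on the male than on the female array in both adult stages. Cryab was the least, at 0.01 and 0.21. The share of all probe sets higher on both male arrays was not counted, so nothing is read from this number. The adult minus embryonic value of the male minus female contrast was 2.92 ± 0.23 (SE) for Hspa1b, 2.91 ± 0.23 for Hspa1a, 1.40 ± 0.21 for Hsph1 and 1.11 ± 0.20 for Dnajb1. These 4 genes had an adjusted p under 0.05 in limma, beside 0.548% of all probe sets. The adult arrays had been seen when the genes were chosen, so this count is a description too. For Dnajb1 the other probe set gave 0.64 ± 0.29 and did not pass, and the gene also dropped out with the mean of its probe sets and without the old pair. The other Hspb1 probe set passed at 1.09 ± 0.23, where the one read did not. So did 1 further Hspb7 probe set, at 1.00 ± 0.19, while the last one gave 0.57 ± 0.24 and did not pass. With 1 male array per adult stage, sex and the single array cannot be told apart.

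Other genes also stood high on those arrays. Of 20685 probe sets whose mean passed 5 in 1 stage or more, 13 (0.0628%) exceeded both other arrays by more than 1 on the log2 scale on the male array of young and of old adults. Of these, 6 were probe sets of 3 of the genes described here (Hspa1a, Hspa1b and Hsph1). The others named were Abra, Eif2s3y (on the Y chromosome), Apod, Synpo2l, Enah and Acta1. On the old adult male array the mean of 5 Z-disc and filament genes (Des, Flnc, Synpo2, Synpo2l and Ttn) was 10.51, against 9.25 and 9.28 on the other old arrays. In young adults the male array read 9.43, against at most 9.16 on the others. The 5 cardiomyocyte genes read 12.21 on the old male array against 11.34 and 11.88, but 11.37 on the young male array against 11.49 and 11.51. The mean of 4 adipocyte genes was lowest on the male array in both stages, at 4.43 against 5.42 (mf) and 6.17 (f) in young and 3.82 against 4.68 and 5.72 in old adults. The part of these levels in the chaperone values was not tested.

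**Figure D2:**
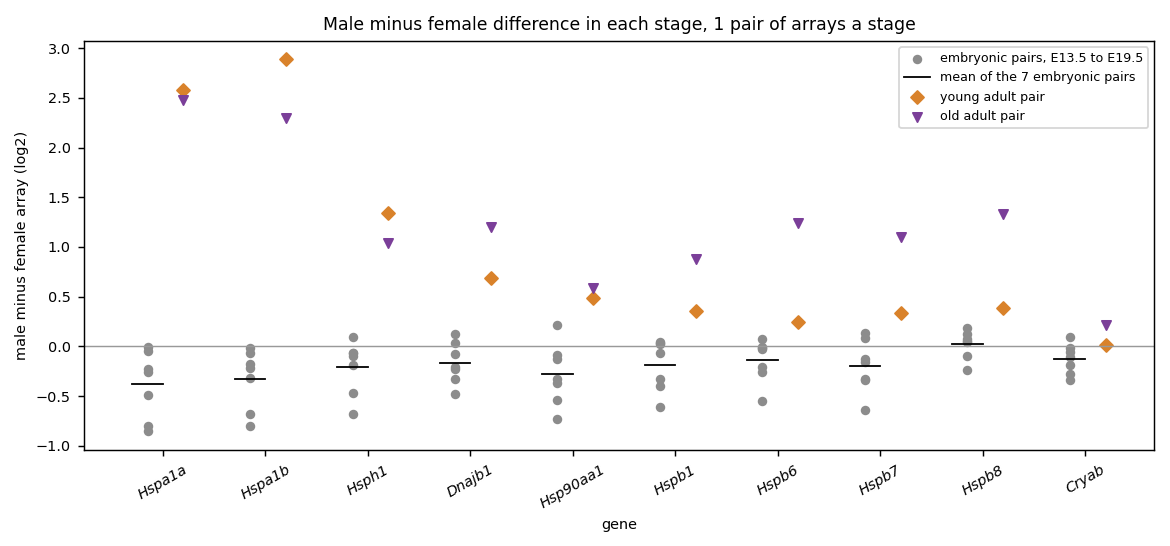
The vertical axis is the male minus female difference of log2 intensity in a stage, from 1 pair of arrays, for each gene on the horizontal axis. Grey points are the 7 embryonic pairs with a bar at their mean, and the young and old adult pairs are marked apart. For Hspa1a and Hspa1b the adult pairs lie between 2.30 and 2.89, while no embryonic pair is above 0.

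Within stages, most of the genes were high or low on the same arrays. The values here are deviations of each array from its stage mean, over 36 arrays, given as a description. All pairs among the 8 genes other than Hspa1a and Hspa1b had a positive r, from 0.34 to 0.85. Hspa1a and Hspa1b had r = 0.97 and rho = 0.94, and r = 0.87 over the 27 arrays from E11.5 to E19.5. Hspb6 had r = 0.84 with Hspb8, 0.83 with Dnajb1 and 0.77 with Hsp90aa1. Among 11357 genes ranked by their r with Hspb6, Hspb8 stood at rank 46 and Dnajb1 at rank 54. Hsp90aa1 stood at rank 381, Hspb7 at rank 802 and Hsph1 at rank 3191. Many genes outside this list thus followed Hspb6 more closely than those 3 did. The shared movement with Hspb6 was therefore not particular to the genes described here. Between Hspa1b and Dnajb1 r was 0.48 over all arrays and 0.07 over E11.5 to E19.5, so the link was not present in those 27 arrays. Hspa1a and Hspb1 had r = -0.10 over all arrays and -0.67 over E11.5 to E19.5.

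Measures of the arrays moved with most of these genes. The mean of the spiked hybridization controls, which report the array rather than the heart, was related within stages to 8 of the 10 genes at an adjusted p under 0.05 (two-sided permutation within stages, 100000 resamples, 20 relations), with r from -0.76 to -0.42. For Hspb1 r was -0.76 and rho -0.76 (permutation p = 2e-05 for each, adjusted p = 0.0003 for r), and -0.72 without the 2 farthest arrays. For Hspb6 r was -0.67 and rho -0.68 (permutation p = 0.00014 and 0.00026, adjusted p = 0.000933 for r), and -0.64 without the 2 farthest arrays. Over 20629 probe sets whose mean passed 5 in 1 stage or more, controls left out, the median r was -0.23 and 39.0% lay below -0.4. The exceptions were Hspa1a (r = 0.21, rho = 0.20, permutation p = 0.315 and 0.311, adjusted p = 0.588) and Hspa1b (r = 0.13, rho = 0.12, permutation p = 0.541 and 0.551, adjusted p = 0.773). Within stages, the 3′ minus 5′ level of the Actb and Gapdh control probe sets, a sign of RNA integrity, was related to none of the 10 at an adjusted p under 0.05. It was 2.44, 2.28 and 3.76 on E10.5 arrays mf1, mf2 and mf3, so only 1 of the 2 arrays high in Hspa1b stood apart in it. Both measures also shifted with stage. The 3′ minus 5′ level lay between 3.96 and 4.03 on E19.5 arrays, but between 2.15 and 2.50 on young adult arrays. Hybridization controls read 9.42 to 10.10 on E10.5 arrays, 10.75 to 11.17 on E19.5 arrays and 11.86 to 12.28 on young adult arrays. The part of these shifts in the stage differences was not tested.

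Hspa1a and Hspa1b moved instead with immediate early genes, which are switched on within minutes of a stimulus. The mean of 10 such genes (Fos, Fosb, Jun, Junb, Egr1, Egr2, Atf3, Ier2, Ier3 and Nr4a1) had r = 0.54 and rho = 0.67 with Hspa1a within stages (permutation p = 0.00147 and 0.00046, adjusted p = 0.0147 for r over 10 relations). For Hspa1b it had r = 0.49 and rho = 0.59 (permutation p = 0.00355 and 0.00121, adjusted p = 0.0178 for r). Without the 2 farthest arrays r was 0.53 and 0.48. The genes were chosen with single adult arrays in view, and those arrays enter these values, so the relation is a description. Probe sets of Hspa1a and Hspa1b may have read both copies, so their relations are not separate results. No other member passed, with Hspb1 the nearest at r = -0.56 and rho = -0.51 (permutation p = 0.0173 and 0.0225, adjusted p = 0.0577 for r). On E10.5 arrays mf1, mf2 and mf3 the mean of the 10 genes was 6.61, 7.69 and 7.63, in the same order as Hspa1b. In old adults it was highest on the male array, at 8.04 against 7.46 (mf) and 6.48 (f). In young adults the male array read 5.91, below the female array at 6.36, although its Hspa1b was highest. In the adult minus embryonic contrast of male and female arrays none of the 10 immediate early genes passed, the nearest being Egr2 at 2.31 ± 0.67 (SE, limma adjusted p = 0.125).

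**Figure D3:**
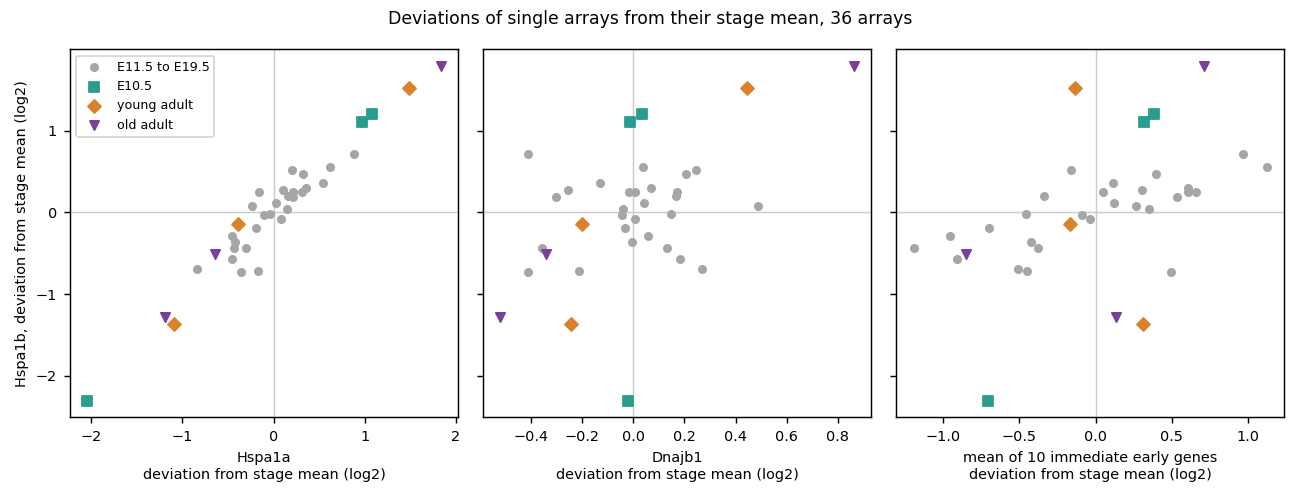
The vertical axis of all 3 panels is the deviation of Hspa1b from its stage mean (log2) on each of 36 arrays. The horizontal axes are the deviations of Hspa1a, of Dnajb1 and of the mean of 10 immediate early genes, and the E10.5 and adult arrays are marked apart. The Hspa1a panel forms a line (r = 0.97). In the immediate early panel the old adult male array lies at the top, right of 0, and the young adult male array lies high but just left of 0.

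The genes most like Hspa1b within stages, among 11357 genes over 36 arrays, were Hspa1a (r = 0.97), 1500009L16Rik (0.76), Pdlim5 (0.71), Camk2d (0.70) and Spred1 (0.69). By the 12 stage means, genes among the nearest were Mtln (0.97), Rrp36, Lrrk1 and Kcnj3 (0.95 to 0.96). For Hspb6 the nearest within stages were Adprhl1, Ahsa1, Rcan2, Polr1e and Ugp2 (r = 0.89 for each), of which Ahsa1 encodes the activator of the HSP90 ATPase. By stage means they were Robo4 (0.99), Acbd4, S100a16, Fbxo36 and Cavin2 (0.98 to 0.99). All these values share the same arrays, and the likeness is a description.

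The other chaperone genes gave a reference for the courses above. At an adjusted p under 0.05 in limma, 9 of 10 chaperonin genes were higher at E10.5 than in young adults and 0 lower, with a median log2 difference of 1.70 against -0.19 for all probe sets. Chaperonins fold newly made proteins in a closed chamber. Cct8, a subunit of the cytosolic ring, stood at 9.18 against 6.34, a log2 difference of 2.85 ± 0.27 (SE, adjusted p = 2.25e-10). Hspd1, the mitochondrial HSP60, differed by 2.12 ± 0.25 (adjusted p = 1.68e-08). Median centring or quantile normalization of the arrays left 8 of 10 higher.

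Of 12 further HSP70 and HSP110 genes 9 were higher at E10.5 and 2 lower, and under median centring 6 and 3. Hspa4, an HSP110 gene, differed by 2.34 ± 0.17 (SE, limma adjusted p = 4.31e-13). Hspa5, the HSP70 of the endoplasmic reticulum, differed by 2.30 ± 0.23 (adjusted p = 5.12e-10). Hspa12b, a distant family member of endothelial cells, went the other way, at 4.18 against 7.24 in young adults, -3.06 ± 0.19 (adjusted p = 8.01e-15). Of 4 endothelial marker genes 3 were lower at E10.5 as well. Of 13 further HSP90 genes and co-chaperones 9 were higher and 1 lower. Smyd1, a methyltransferase of muscle that works with HSP90 on myosin, stood at 9.33 against 5.69, 3.64 ± 0.29 (adjusted p = 5.26e-12). Stip1, which joins HSP70 to HSP90, differed by 2.16 ± 0.28 (adjusted p = 6.89e-08). Of 17 further HSP40 genes 8 were higher and 3 lower, a split that became 3 higher and 7 lower under median centring.

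Hspb3, another muscle small heat shock protein, took the opposite course to Hspb6: its mean was 8.10 at E10.5, had come down to 6.45 by E19.5, and was 4.77 in young adults. Its log2 difference between E10.5 and young adults was 3.34 ± 0.25 (SE, limma adjusted p = 6.64e-13). Of the other 3 small heat shock genes Hspb9 and Cryaa were lower at E10.5, at stage means of at most 4.68 in both groups, and Hspb2, named to account for the whole list, did not pass (0.59 ± 0.27, adjusted p = 0.056). Of 3 heat shock factors 2 were higher at E10.5 than in young adults and 1 lower, with a median log2 difference of 0.36. Under median centring 1 was higher and 1 lower. Hsf2 stood at 5.64 at E10.5 against 2.76 in young adults, 2.88 ± 0.34 (adjusted p = 1.37e-08).

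Between E19.5 and young adults the medians of these 4 larger lists lay between -0.15 and 0.16. Of the chaperonins 3 were higher at E19.5 and 1 lower, of the HSP70 and HSP110 genes 4 and 2, of the HSP90 genes and co-chaperones 3 and 3, and of the HSP40 genes 3 and 6. Under median centring, which moved the median of all probe sets from -0.04 to -0.22, these splits were 1 and 1, 3 and 2, 2 and 5, and 1 and 7, in the same order. Bag3, the partner of Hspb8, was lower at E19.5 than in young adults, at 6.20 against 7.95, -1.75 ± 0.21 (SE, limma adjusted p = 6.52e-08). Over 6 BAG co-chaperones 1 was higher and 3 were lower, with a median of -0.49. The Z-disc genes bound by small heat shock proteins were higher at E19.5 in 2 of 5 (Flnc and Synpo2l) and lower in 0. Whether the 10 genes differ from these lists was not tested.

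**Figure D4:**
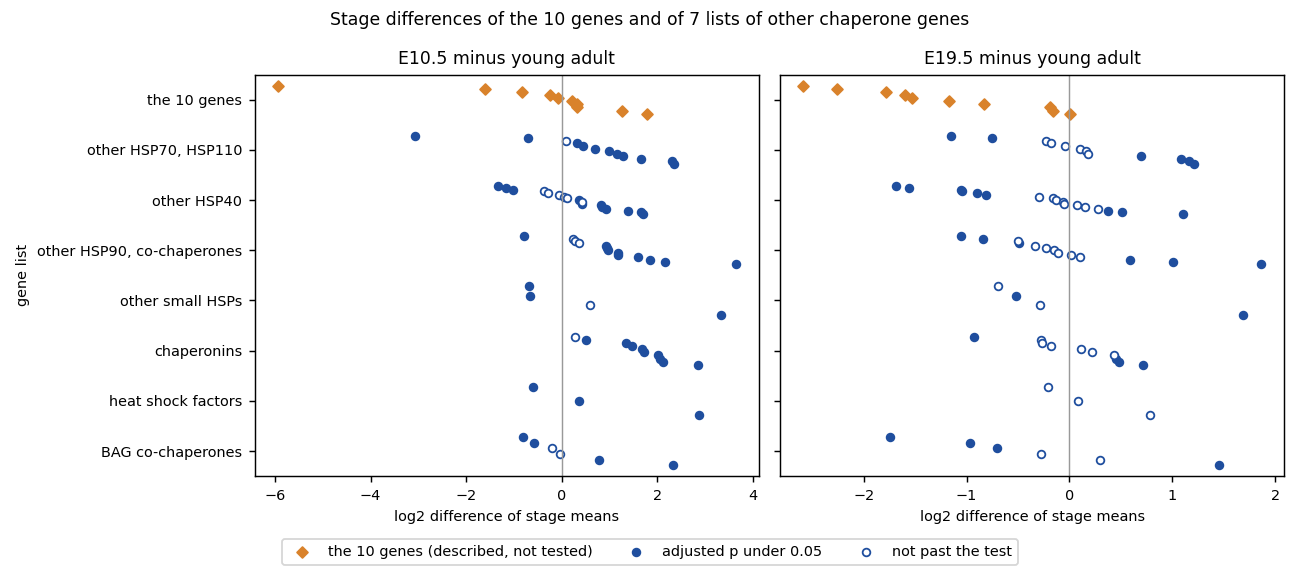
Each point is the log2 difference of stage means of a gene (horizontal axis), E10.5 minus young adult on the left and E19.5 minus young adult on the right, in rows by gene list. Filled points of the other lists have an adjusted p under 0.05, and the 10 genes are diamonds without a test. At E10.5 the chaperonins lie to the right of 0 (median 1.70), and at E19.5 the 10 genes have a median of -1.35.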

How the data were processed

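RNA of 36 hearts or heart samples had been hybridised to Affymetrix mouse arrays. The authors deposited log2 intensities made with robust multi-array average (background correction, quantile normalization and summary of each probe set), with Affymetrix Expression Console and Partek 6.6 named in the submitters' processing notes. That step pulls the probe values of all arrays to 1 distribution before the summary, so a change shared by most genes may be lost. The medians of the deposited arrays still ran from 4.00 to 4.20. The values were used without rescaling. The members and all gene lists were chosen with earlier results of these data known. List genes without a matched probe set (Ptges3, Ppid, Myh6, Plin1 and Serpina1a) were not analysed here.

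One limma 3.58.1 model (R 4.3.3) with 12 stage means was fitted to all 45101 probe sets, with Benjamini-Hochberg adjustment. Male and female arrays (9 pairs) were compared with stage as a block, and the contrast was compared between 7 embryonic and 2 adult pairs. Named genes were the 10 members, up to 2 genes each way of another list, and the 5 genes most like Hspb6 and Hspa1b, of which 1 is not reported here. Relations to array measures used 100000 permutations within stages (Python 3.11.15, SciPy 1.17.1). By the methods the arrays of a stage were biological replicates. Whether they came from separate litters was not given in the sources used here. The number of arrays limits the precision. Sample titles begin differently for E16.5 female and all later arrays. No source calls this a batch, and it cannot be told apart from late stages. The model was tested on simulated data. Alternatives were another scaling, a filter, gene means, the sex label as a block, the compared groups alone and single arrays left out.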

Additional observations from a re-analysis of the deposited data

Results flagged for a closer look

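The male minus female difference of 4 genes stood apart between adult and embryonic pairs, as values past the limit of the interaction term over all probe sets. The genes were chosen with the same adult arrays in view and each adult stage had 1 male array, so this is a description and not a test of a sex difference. The adult minus embryonic value was 2.91 for Hspa1a, 2.92 for Hspa1b, 1.40 for Hsph1 and 1.11 for Dnajb1, on the log2 scale. Both adult pairs were positive for each, and 7 of 7 embryonic pairs were negative for Hspa1a and Hspa1b, 6 of 7 for Hsph1 and 5 of 7 for Dnajb1. The share of all probe sets with such signs was not counted, so nothing is read from these numbers. In each of these embryonic pairs the male array had the higher hybridization control level, as at E16.5 (11.35 against 10.89). It was also higher on the male array in young adults (12.28 against 11.88), but lower in old adults (10.97 against 11.17). The part of that level was not tested. The other probe set of Dnajb1 gave 0.64 and did not pass.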

How the results depend on the processing

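Median centring raised the called genes between E10.5 and young adults from 1 to 2. The calls between E19.5 and young adults fell from 1 to 0 with gene means over all probe sets, with the compared groups alone, and without both adult male arrays. Between E10.5 and E19.5 they fell from 2 to 1 with the compared groups alone and without E10.5 arrays mf2 and mf3. The softer limit, an adjusted p under 0.05, gave 4, 6 and 8 genes for the 3 comparisons. Leaving out single arrays gave 0 to 1 between E19.5 and young adults (0 without any E19.5 array or without the young male or female one) and 1 to 2 between E10.5 and E19.5 (1 without E10.5 mf1, E10.5 mf2 or E19.5 mf). With the sex label as a replicate block, the numbers of calls were 1, 1, 3 and 0 for the 4 stage comparisons, and the comparison of male and female arrays gave 0 with and without stage as a block. The 4 genes of the adult minus embryonic contrast became 3 to 8 when single pairs were left out: 8 without the young pair, and 3 without the old pair, where Dnajb1 had an adjusted p of 0.0636 in limma. Calls over all probe sets rose too, from 247 to 2005 without the young pair and to 1488 without the old pair. Gene means also gave 3. The cause of these changes was not tested. Of 480 member fold changes under the alternatives, 420 moved by less than 1 SD, and none that was called reversed. Median centring moved the median of all probe sets between E10.5 and young adults from -0.19 to -0.71. The small differences of Hspa1a, Hsph1 and Dnajb1 in that comparison changed sign with it. Those of Hsph1 and Dnajb1 also did so under quantile normalization. Hspb7, at -0.24 as deposited, read -0.76 under median centring and -0.54 under quantile normalization. Both had an adjusted p under 0.05 in limma. Between E10.5 and E19.5 Hspb7 read -0.59 and -0.56, also past that limit.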
